A study of Arabidopsis thaliana with 3 samples.

Results

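The genes described here are the 3 CBF transcription factor genes of the Arabidopsis thaliana cold response, CBF1 (AT4G25490), CBF2 (AT4G25470) and CBF3 (AT4G25480, listed as DREB1A in the gene table), with 4 cold-response genes, COR15A (AT2G42540), COR47 (AT1G20440), ERD10 (AT1G20450) and ERD14 (AT1G76180). They were chosen by name, as 7 of 27444 nuclear protein-coding genes. For each gene, every peak of DEK2-YFP whose summit lay inside the gene or within 500 bp of it is given. DEK2 is a DEK-type chromatin protein, and the series asks where it sits on chromatin. Whole seedlings aged 14 days were dek2-1 mutants with a DEK2-YFP transgene driven by the promoter of DEK2 (dek2-1, pDEK2::DEK2-YFP), and their crosslinked chromatin was precipitated with anti-GFP, an antibody that binds YFP as well. This single group holds 2 immunoprecipitates, numbered as replicates 1 and 2, and the input of the same genotype has no values used here.

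Seeds were kept at 4 °C for 48 h before sowing, and the seedlings then grew at 21 °C with 16 h of light a day. The labels name no cold treatment. The series' design text speaks of mock-treated plants and of plants given the bacterium Pst DC3000 hrcC-, and the labels of these samples name neither, so it is not known whether the seedlings received such a treatment. The labels do not say how many transgenic lines were used or whether the replicates were grown apart, and a whole seedling mixes cell types that the peaks cannot separate. A mock precipitation from plants lacking the fusion protein was not analysed here. The lists hold no expression values, so neither the tissue nor the activity of these genes was checked.

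CBF proteins are AP2-domain activators that plants make within minutes to hours of a drop in temperature. They bind the C-repeat, or dehydration-responsive element, in front of cold-regulated genes such as COR15A and COR47 and so switch on freezing tolerance. COR47, ERD10 and ERD14 encode acidic dehydrins, hydrophilic proteins that protect membranes and other proteins when cells lose water. COR15A is not a dehydrin: it encodes a small late-embryogenesis-abundant protein that is imported into chloroplasts and stabilises their membranes. The CBF genes stand in tandem on chromosome 4 in the order CBF2, DREB1A, CBF1. COR47 and ERD10 are also neighbours.

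Replicate 1 held 25742 peaks and replicate 2 held 13307. The commonest modelled background was 60.5 fragments in replicate 1 and 22.1 in replicate 2, and replicate 1 listed weaker and wider peaks. The median width was 465 bp in replicate 1 and 259 bp in replicate 2, and the smallest 210 bp and 150 bp. Whether sequencing depth, which is not given, or other settings made these differences was not tested. Each peak has a fold enrichment, the authors' ratio of the fragments stacked at the summit to the local background. Its list median was 1.82 in replicate 1 and 2.02 in replicate 2. The number of fragments at each summit was recovered from the fold and p-value, and the bracketed range after a fold is its exact 95% Poisson interval. It covers counting error at the summit only. A replicate 1 peak is called shared when 50% or more of the shorter peak of a pair overlaps between the lists, and a gene carries a shared peak when the summit of such a replicate 1 peak lies inside it or within 500 bp. Enrichment too weak for the authors' threshold is not listed, so a gene without a peak is not shown to lack DEK2. All peak coordinates are TAIR10, and distances to genes rest on the spans of the gene table, which gives no strand.

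Shared peaks were found at 4 of the 7 genes: CBF2 and DREB1A among the regulators, and ERD10 and ERD14 among the cold-response genes. By the same rule 34.2% of all protein-coding genes carried a shared peak. Genes of 986 to 2465 bp, the range of the 7, did so in 33.5% of cases. With 7 genes, 2 of them neighbours and 3 in one cluster, this count was not tested against the background. All 7 genes had a peak in replicate 1, where 66.7% of protein-coding genes had one, and 5 had a peak in replicate 2, against 37.0%. Together these were 10 peaks of replicate 1 and 7 of replicate 2. No peak near CBF1 or COR15A was found again in replicate 2, and COR47 had peaks in both replicates without meeting the rule.

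The count rests on how a shared peak is defined. An overlap of 50% or more of both peaks was met at 0 of the 7 genes (16.7% of protein-coding genes). The replicate 2 peaks overlapped 10.7% to 43.3% of the length of the wider replicate 1 peaks they matched. With only peaks whose −log10 q reached 5 in each list, ERD14 alone was left (12.5%), and with only summits inside the gene, ERD10 alone (15.3%). The same 4 genes were found with any overlap (34.7%), with summits of both replicates within 500 bp (33.1%) and when a summit counted for its nearest gene only (27.1%).

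**Figure D1:**
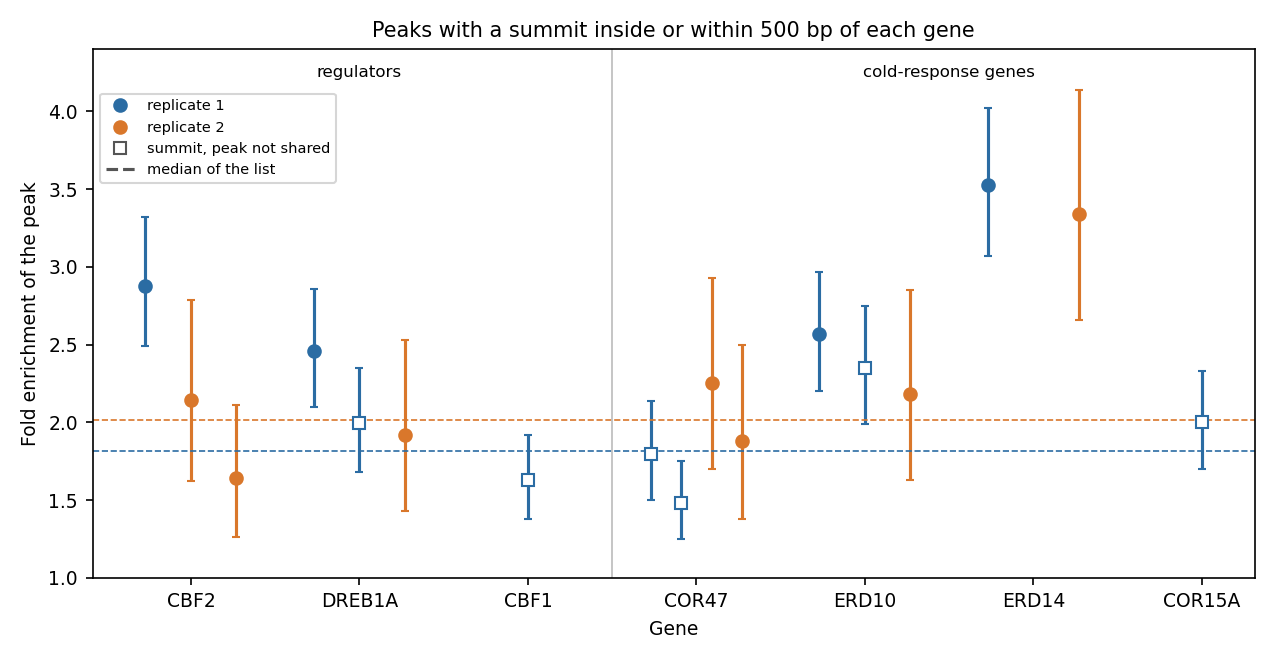
Fold enrichment (y axis, from 1) of every peak with its summit inside or within 500 bp of each gene (x axis), with exact Poisson intervals of the summit count as bars. Blue is replicate 1 and orange replicate 2, filled points are shared peaks, and dashed lines are the list medians of 1.82 and 2.02. The ERD14 peaks, at 3.52 and 3.34, are the highest in each replicate.

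Among the regulators, enrichment was strongest at the low-coordinate end of the cluster. CBF2, the first gene of the array, lay wholly under a replicate 1 peak on chromosome 4 from 13014871 to 13016684. Its summit was 87 bp outside the gene, at the lower-coordinate end, and its fold enrichment was 2.88 (2.49 to 3.32), from 189 fragments over a background of 64.9. That put it in the top 2.39% of the replicate 1 list by fold enrichment and the top 0.96% by width. In replicate 2 the same end carried a peak from 13015059 to 13015252 with a summit 2 bp from that of replicate 1 and a fold enrichment of 2.14 (1.62 to 2.79), from 54 fragments over 24.6. That peak was in the top 33.6% of the replicate 2 list by fold enrichment and the top 75.7% by width. The intervals of the replicates overlap.

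The other end of CBF2 had a peak of its own in replicate 2 only. It ran from 13016226 to 13016609 with its summit 78 bp outside the gene and a fold enrichment of 1.64 (1.26 to 2.11), an interval below that of the replicate 1 peak. The wide replicate 1 peak spans this place but has its summit 1150 bp away. The CBF2 gene is thus flanked by a replicate 2 summit on each side, with 1.32% of its length under replicate 2 peaks, while replicate 1 listed 1 block over all of it.

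DREB1A, the middle gene, had its shared peak at the same end. In replicate 1 it ran from 13017696 to 13018225, with the summit 111 bp outside the gene and a fold enrichment of 2.46 (2.1 to 2.86) from 166 fragments over 66.8. In replicate 2 it ran from 13017848 to 13018032, with the summit 5 bp outside and a fold enrichment of 1.92 (1.43 to 2.53) from 48 fragments over 24.5. The replicate 1 value was in the top 9.87% of its list, while the replicate 2 value lay under its list's median. Both summits fall inside AT4G07385, a long non-coding RNA gene that overlaps this end of DREB1A, so the peak cannot be assigned to either gene alone. A second replicate 1 peak, from 13018949 to 13019632, had its summit 58 bp inside the higher-coordinate end of DREB1A (2.00, 1.68 to 2.35) and no counterpart in replicate 2.

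CBF1, the last gene of the array, had the weakest enrichment of the 3. Its only peak by the rule ran from 13022433 to 13023271 in replicate 1, with the summit 76 bp inside the higher-coordinate end. The fold enrichment was 1.63 (1.38 to 1.92), from 145 fragments over a background of 88.4. This interval lies below those of the best replicate 1 peaks of CBF2 and DREB1A. The second DREB1A peak had nearly the same stack, 144 fragments, over a lower background of 71.6. A further replicate 1 peak, from 13020998 to 13022105, covers the lower-coordinate end of CBF1, but its summit lies 548 bp outside the gene, just beyond the rule, inside AT4G03125, a gene of the table's class misc_RNA. It had a fold enrichment of 1.78 (1.52 to 2.06) and no match in replicate 2.

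Across the 7747 bp from the start of CBF2 to the end of CBF1, 5 replicate 1 peaks covered 55.8% of the sequence and 3 replicate 2 peaks covered 7.38%. From CBF2 to CBF1 the replicate 1 folds were 2.88, 2.46, 2.00, 1.78 and 1.63. The fragments at these summits were 189, 166, 144, 172 and 145, over backgrounds of 64.9, 66.8, 71.6, 96.2 and 88.4. The counts thus did not fall in step with the folds, and the backgrounds were higher toward CBF1. The next shared peak along the chromosome stands 1596 bp beyond CBF1, inside the end of RS40 (AT4G25500), which encodes an arginine- and serine-rich splicing factor. It had 2.56 (2.21 to 2.95) in replicate 1 and 2.37 (1.83 to 3.02) in replicate 2. The CBF coding regions are close copies of each other, and how reads with several matches were treated is not given. Whether this affected the values inside these genes was not tested.

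**Figure D2:**
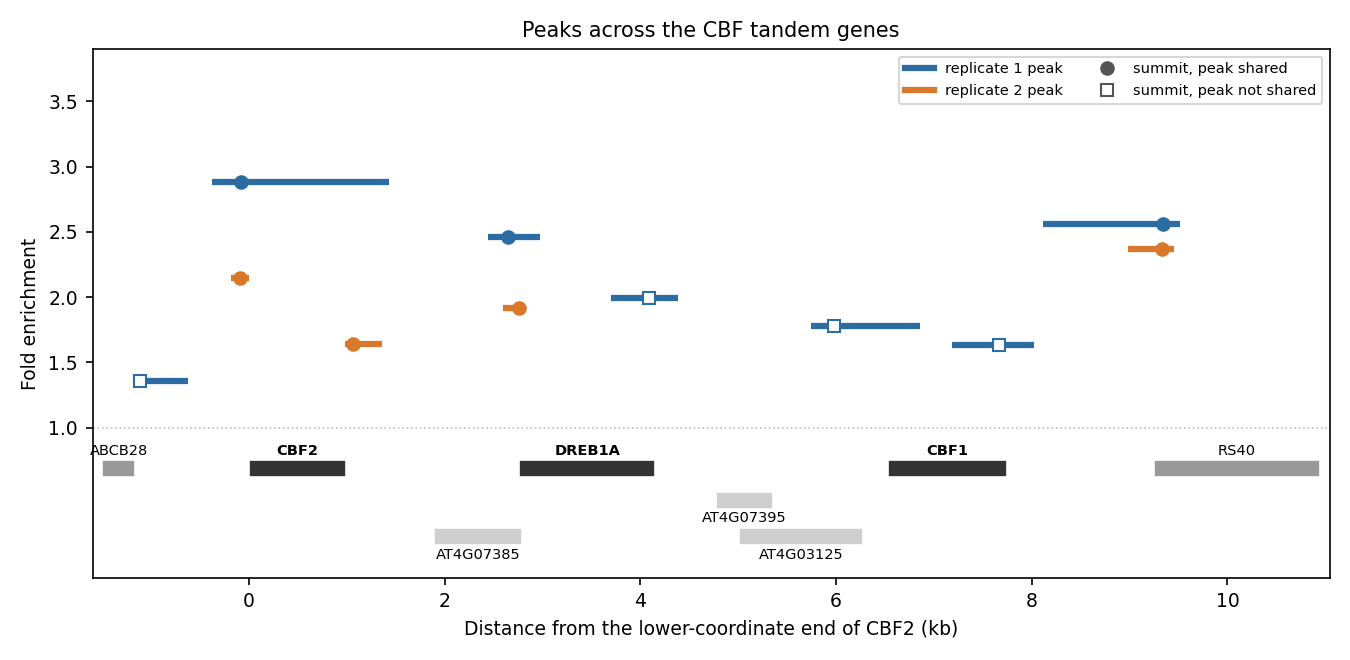
Peaks across the CBF tandem genes, as bars from peak start to end with the summit marked, at the height of their fold enrichment (y axis), by distance from the lower-coordinate end of CBF2 (x axis, kb). Boxes under the dotted line at 1 are genes, with the CBF genes black, other protein-coding genes dark grey and non-coding genes light grey. The fold of replicate 1 (blue) steps down from 2.88 at CBF2 to 1.63 at CBF1, though its fragment counts do not fall in step. Replicate 2 (orange) has no peak between DREB1A and RS40.

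Among the cold-response genes, ERD14 carried the strongest peak of all 7 in both replicates. The replicate 1 peak on chromosome 1 from 28586143 to 28588031 covered the whole gene, with its summit 95 bp outside the lower-coordinate end. Its fold enrichment of 3.52 (3.07 to 4.02) came from 216 fragments over 60.5, which is the commonest background of that list, and put it in the top 0.12%. The replicate 2 peak from 28586362 to 28587179 had its summit 168 bp outside the gene and a fold enrichment of 3.34 (2.66 to 4.14) from 81 fragments over 23.6, in the top 0.564%. It covered 40.7% of the gene, and 0.619% of protein-coding genes were covered as much in that replicate. The summits of the replicates were 73 bp apart.

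Both summits of the ERD14 peak lie in the spacer of 244 bp that separates this gene from AT1G76170. The replicate 1 summit is nearer to ERD14, whereas the replicate 2 summit is nearer to AT1G76170, so both genes are candidates for it. By the worse position in the replicates, ERD10, CBF2 and DREB1A ranked 2395, 2779 and 5697 among the 9382 protein-coding genes with a shared peak. On the same measure ERD14 shared rank 10. The genes most like it, by distance between best shared peaks on the log2 scale over the 2 replicates, were AT4G34150 and its neighbour CYCD3;1, a D-type cyclin gene, which share a peak of 3.32 and 3.39 (distance 0.0868), and PEN3, an ABC transporter gene of penetration resistance, with 3.34 and 3.24 (0.0885).

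ERD10 also lay under a wide peak. In replicate 1 it ran on chromosome 1 from 7087810 to 7089514, covered 94.6% of the gene and had its summit 353 bp inside. The fold enrichment was 2.57 (2.2 to 2.97), from 174 fragments over 67.1, in the top 7.25% of the list. The matching replicate 2 peak from 7087816 to 7088344 begins 6 bp from it and has its summit 132 bp inside the same end. Its fold enrichment was 2.18 (1.63 to 2.85) from 51 fragments over 22.8, in the top 29.6% of the replicate 2 list. Of the shared peaks at these genes, only that of ERD10 has its summits inside the gene in both replicates. Beyond the other end, a replicate 1 peak from 7089674 to 7090196 had 2.35 (1.99 to 2.75) with its summit 443 bp outside, the farthest that the rule took in, and no match in replicate 2.

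COR47, next to ERD10 across a spacer of 1029 bp, had peaks in both replicates, but no shared peak by the rule. Replicate 2 had a peak from 7083894 to 7084511, with its summit 151 bp outside the lower-coordinate end and a fold enrichment of 2.25 (1.70 to 2.93), also near AT1G20430, and a weaker one of 1.88 from 7084810 to 7085086, whose summit lies 421 bp inside. Both overlap 1 replicate 1 peak, which runs from 7083676 to 7086121 over most of the gene with a fold enrichment of 1.9 (1.65 to 2.19). The summit of that peak lies 591 bp outside COR47, inside AT1G20430, and so just beyond the limit. With a limit of 1000 bp COR47 carried a shared peak too, as did 40.8% of protein-coding genes. The replicate 1 peaks that do count for COR47 were weak and unmatched. One had its summit 229 bp inside the higher-coordinate end (1.80, 1.5 to 2.14) and the other 264 bp outside it (1.48, 1.25 to 1.75).

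COR15A had the least coverage of the 7 genes. Its single peak, in replicate 1, ran on chromosome 2 from 17712110 to 17712633. The summit was 136 bp outside the higher-coordinate end, with a fold enrichment of 2.00 (1.70 to 2.33) from 160 fragments over 79.5. It covered 11.7% of the gene, and replicate 2 listed nothing over it. COR15B, its close copy 7 bp away on the other side, had no peak in either replicate.

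**Figure D3:**
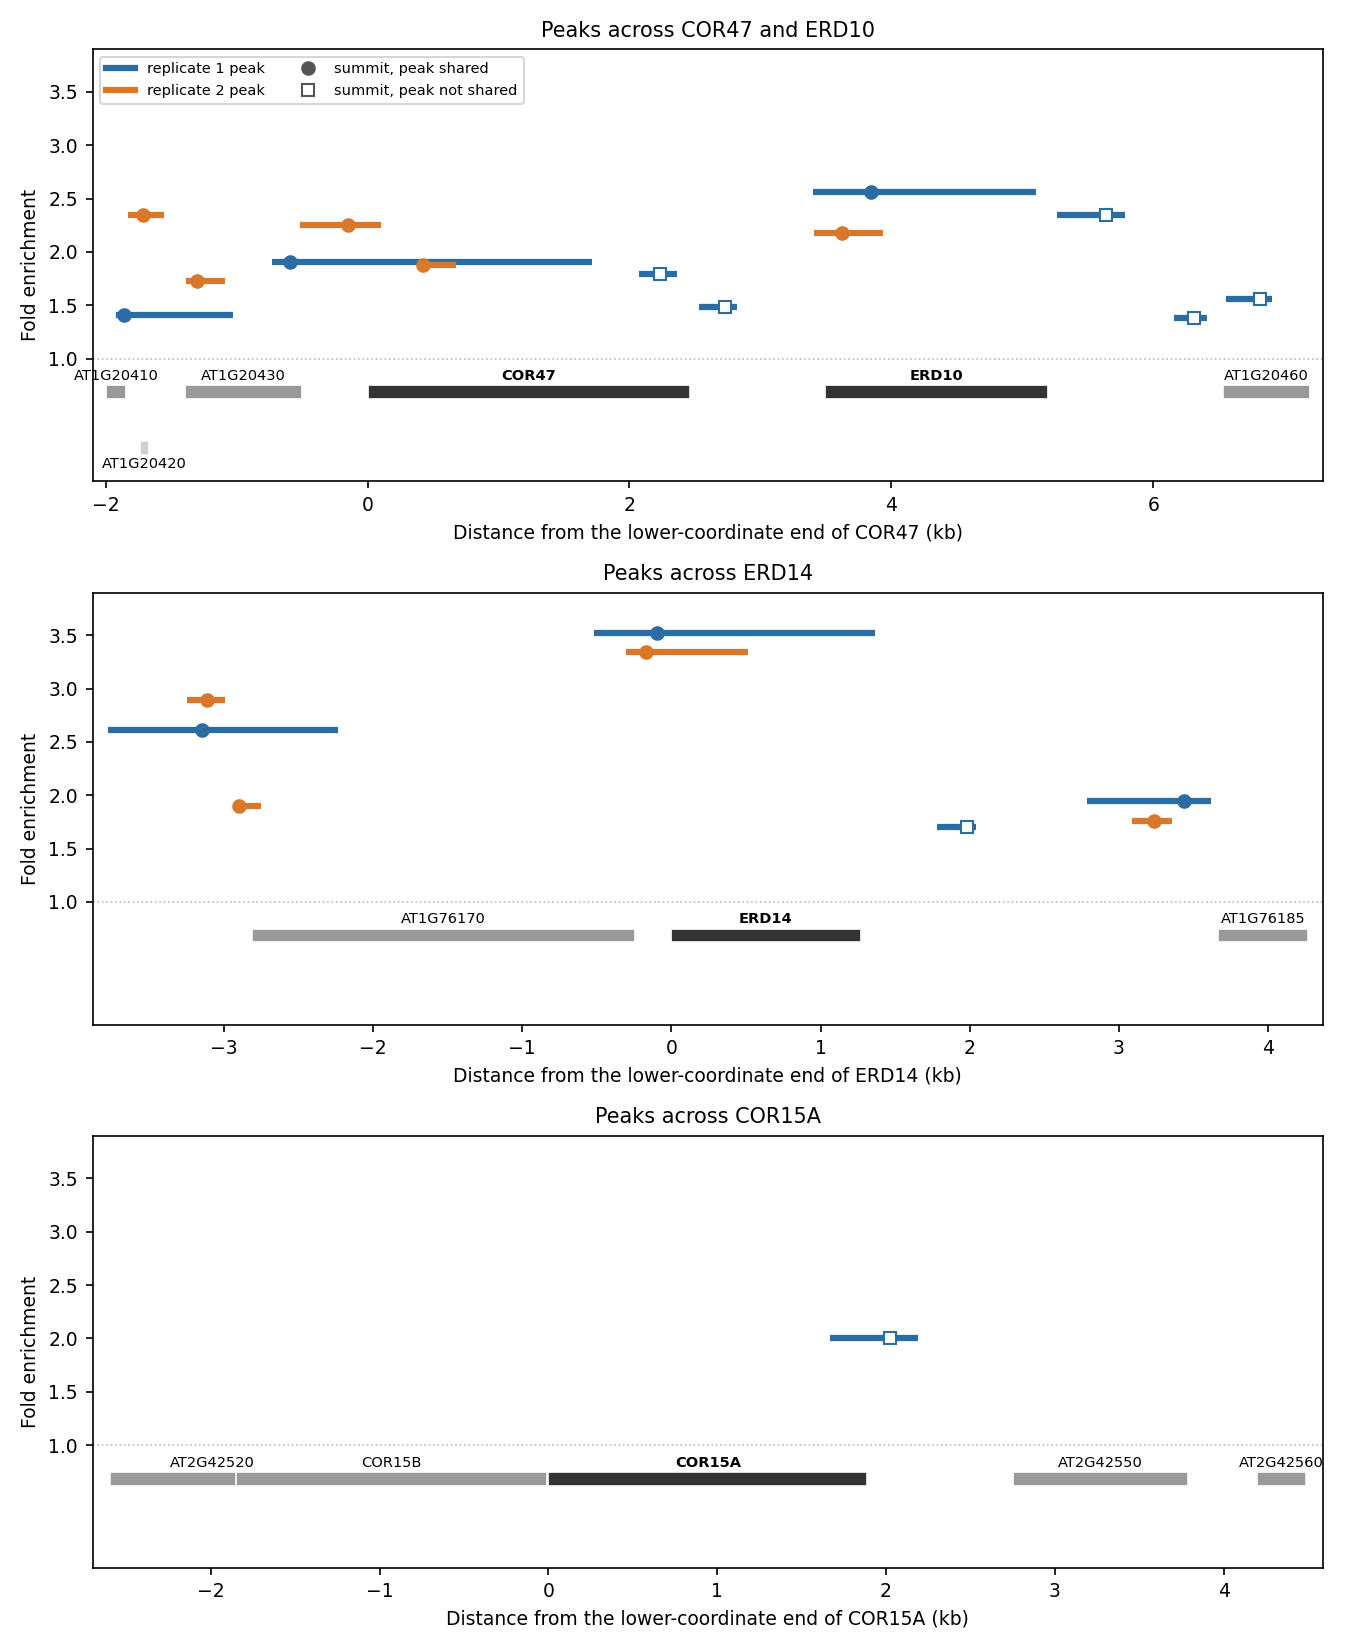
Peaks across COR47 and ERD10 (top), ERD14 (middle) and COR15A (bottom), drawn as bars at the height of their fold enrichment (y axis) by distance from the lower-coordinate end of the first named gene (x axis, kb). Summits of shared peaks are filled circles and the others open squares; blue is replicate 1 and orange replicate 2. Wide replicate 1 peaks lie over ERD10, ERD14 and most of COR47, while COR15A has 1 peak at its end.

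In replicate 1 the share of a gene under peaks was high for most of these genes, which were chosen by name with earlier results of these data known. CBF2 and ERD14 were covered in full, ERD10 to 94.6%, COR47 to 81.3%, CBF1 to 73.1%, DREB1A to 48.0% and COR15A to 11.7%. The median of the 7 was 81.3%, and that of all protein-coding genes was 5.35%. All 7 had a replicate 1 peak, whereas 38.7% of protein-coding genes had no covered base in that replicate, so these medians do not compare like with like. Of the 7 genes 6 are shorter than the median protein-coding gene of 2078 bp. Among genes of 986 to 2465 bp the median was 7.40%, and 0.41% were covered in full, against 0.696% of all protein-coding genes. In replicate 2, whose peaks are narrower, the cold-response genes ERD14, ERD10 and COR47 had 40.7%, 25.9% and 15.4% under peaks. DREB1A and CBF2 had 1.65% and 1.32%, and CBF1 and COR15A had none. The median of the 7 was 1.65% there, and 73.5% of protein-coding genes had no covered base. Within replicate 2 these 3 dehydrin genes were each covered more than any CBF gene, but COR15A, the remaining cold-response gene, was not. In replicate 1 the groups overlapped. Relatives outside the 7 did not divide in this way. In replicate 2 the dehydrin genes HIRD11, XERO1 and XERO2 had 7.18%, 5.81% and 0.31%, and AT4G38410, LEA, AT4G39130 and RAB18 had 0%. Of the other DREB1 genes DDF1 had 35.2%, and DDF2 and CBF4 had 0%.

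**Figure D4:**
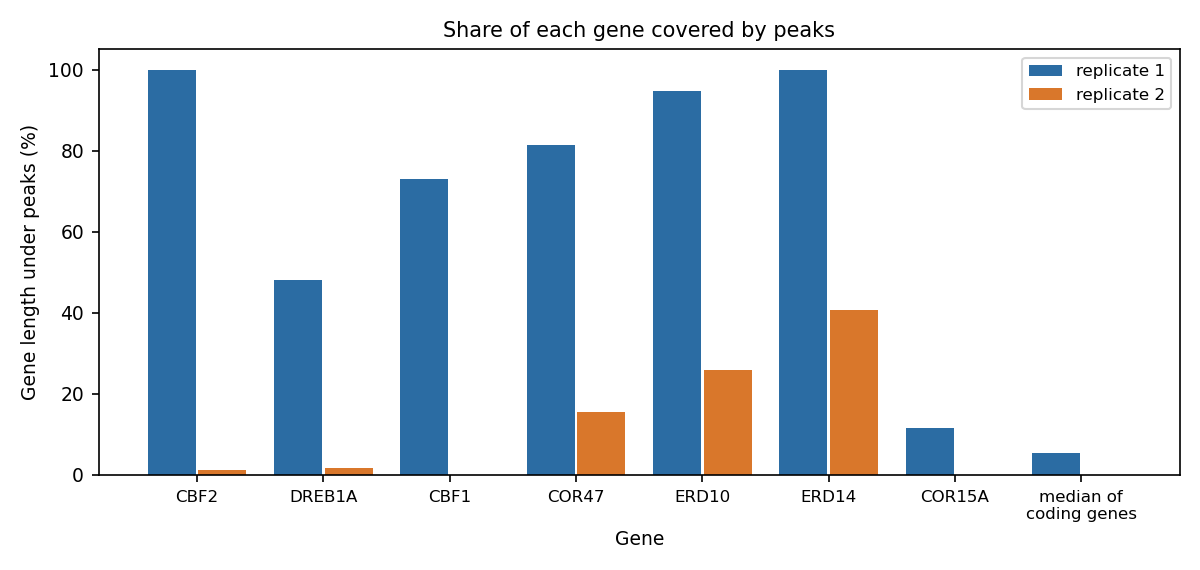
Percentage of each gene's length under peaks (y axis, from 0) in replicate 1 (blue) and replicate 2 (orange), with the median of all protein-coding genes at the right (5.35% and 0). In replicate 1 every gene but COR15A and DREB1A is covered to over 70%, and in replicate 2 the dehydrin genes ERD14, ERD10 and COR47 are covered most.

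Set side by side, the regulators and the cold-response genes overlapped in fold enrichment. By the best replicate 1 peak the order was ERD14 (3.52), CBF2 (2.88), ERD10 (2.57), DREB1A (2.46), COR15A (2.00), COR47 (1.80) and CBF1 (1.63). The counting intervals of neighbours in this order overlap, so only wider gaps stand out. That of ERD14 lies above those of all genes but CBF2. In replicate 2 the order was ERD14 (3.34), COR47 (2.25), ERD10 (2.18), CBF2 (2.14) and DREB1A (1.92). Here the interval of ERD14 lies above that of DREB1A and overlaps the rest. For comparison, the best shared peaks of all genes that carried one ran from 1.63 to 2.72 in replicate 1 and from 1.70 to 2.58 in replicate 2, between the 10th and 90th percentiles. ERD14 is above this range in both replicates, CBF2 in replicate 1 alone, and ERD10 and DREB1A within it in both.

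Genes around this pathway were taken from 5 lists of 44 genes in all, and 28 of them (63.6%) carried a shared peak, against 34.2% of protein-coding genes. With an overlap of 50% or more of both peaks the share was 15.9%, against 16.7%, so the lists were not above the background under that rule. Under the other rules the share was above the background. It was 27.3%, against 12.5%, with a −log10 q of at least 5 in each list. With the nearest gene only it was 52.3%, against 27.1%. The lists were written with earlier results of these data known, so nothing is read from any of these differences. The background was not matched to them in gene length. Some upstream regulators are long, up to the 6654 bp of CAMTA1, against a median of 2078 bp for protein-coding genes. CAMTA1 itself carried no shared peak, and most genes of the other lists are shorter than that median. Upstream regulators, which control the CBF genes or their proteins, had 8 of 11. The best were OST1, a protein kinase that phosphorylates ICE1 (2.65 in replicate 1 and 2.81 in replicate 2), ICE1, a bHLH activator of CBF genes (2.57 and 2.38), and LOS4, an RNA helicase (3.38 and 2.21). MYB15, a repressor of CBF genes, had 3.00 and 1.68. Of the early cold-induced transcription factors 6 of 8 carried one, led by MYB73 (2.63 and 2.60), ZAT10 (STZ in the table, 3.76 and 2.54) and CZF1 (2.70 and 2.42).

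Relatives of the members were mixed, and their counts stand beside the 34.2% of all protein-coding genes that carried a shared peak. Of the other DREB1 genes DDF1 (2.79 and 1.72) and DDF2 (2.38 and 1.69) carried a shared peak, and CBF4 had 1 peak in replicate 1 only. Of 7 other dehydrin genes 4 did, among them XERO2 (LTI30 in the table, 2.39 and 2.24), AT4G38410 (2.86 and 2.18) and HIRD11 (AT1G54410, 2.76 and 2.08). XERO1, the remaining gene of the 4, did so only through a peak that also lies near XERO2. The abscisic acid-responsive RAB18 had 2 replicate 1 peaks, neither with a replicate 2 match. Other cold-regulated genes had 8 of 15, with ERD7 (2.49 and 2.18), RCI2A (2.66 and 2.09, the latter from a peak with its summit near RCI2B) and RD29A (LTI78 in the table, 1.79 and 2.19) first. The peaks named for MYB73, LOS4, ERD7, XERO2, AT4G38410 and DDF1 also lie near another gene.

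**Figure D5:**
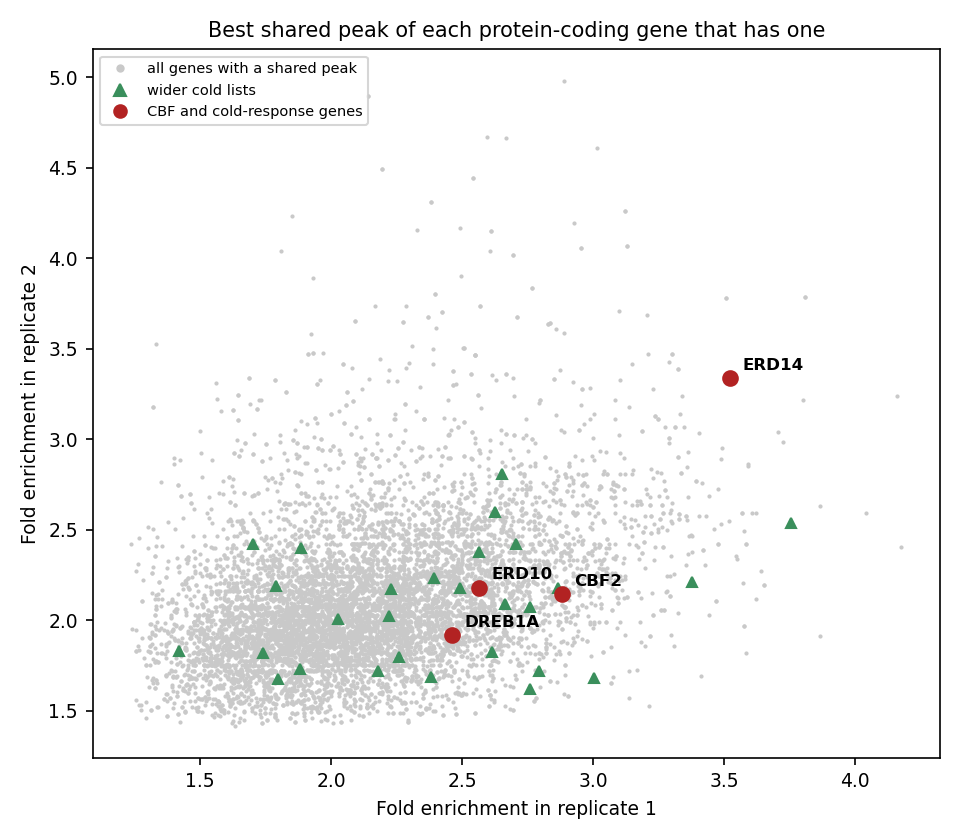
Fold enrichment of the best shared peak in replicate 1 (x axis) and replicate 2 (y axis) for each of the 9382 protein-coding genes that carried one (grey), with the wider cold lists as green triangles and the 4 genes described here that carried one in red. ERD14 stands at 3.52 and 3.34, apart from CBF2, ERD10 and DREB1A.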

How the data were processed

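Per the labels' protocols, formaldehyde-crosslinked chromatin was sonicated and precipitated with anti-GFP. Trimmomatic 0.38, MACS2 2.2.7.1, Bowtie2 2.3.5 and SAMtools 1.9 are named with the TAIR10 build, per the submitters' processing notes. Their settings, the control for peak calling and the handling of multi-mapping and duplicate reads are not given in the sources used here. Peaks were called per immunoprecipitate. In the deposited lists the fold enrichment is a ratio with 1 added to both parts, the p-value and q-value columns are −log10 values, and the deposited score is made from the q-value.

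Fragments and background at each summit were solved from fold and p-value under a Poisson tail. Counts came out whole, within 0.02, in 100% of peaks, after a scaling of 0.894 in replicate 1. Of the 17 peaks near the members 1 had 2 solutions, and the closer to a whole number was used. Intervals treat the background as known, and the summit is the highest point of its peak. The depth itself is not given.

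Gene spans came from a RefSeq table of TAIR10.1, whose coordinates are not printed. Shifting the shared summits by up to 500 bp in steps of 50 bp gave the lowest share inside genes (41.3%) at 0. Members and all 44 list loci matched by locus. Neighbouring list genes are as the table orders them. Members, lists and rules were chosen with earlier results of these data known. The text names all members, genes that share their peaks, the best 3 of each list by the worse position in the replicates, and the 3 genes most like the strongest member. MYB15, CBF4, RAB18, COR15B, RS40 and the pairs in the closing section were chosen after their values were seen. CAMTA1, LEA, AT4G39130, AT4G03125, AT5G15980 and ML5 are also named outside these rules. No test was run, since there is 1 group of 2 replicates. Promoter motifs and protein comparisons that had been planned were not run, because no sequence was used here. Scripts ran in Python 3.11.15 with NumPy 2.4.6, pandas 2.3.3 and SciPy 1.17.1 and were tested on simulated data. Under 9 alternatives the counts were repeated.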

Additional observations from a re-analysis of the deposited data

How the results depend on the processing

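Requiring an overlap of 50% of both peaks left 0 members (0 regulators, 0 cold-response genes, 0 peaks) and 7 list genes (15.9%), against 16.7% of protein-coding genes. A −log10 q of at least 5 in each list left ERD14 alone (1 member, 0 regulators, 1 cold-response gene, 1 peak) and 12 list genes (27.3%), against 12.5%. Summits inside the gene left ERD10 alone (1 member, 0 regulators, 1 cold-response gene, 1 peak) and 15 list genes (34.1%), against 15.3%. Any overlap, the nearest gene only, and both summits within 500 bp kept CBF2, DREB1A, ERD10 and ERD14, and a limit of 1000 bp added COR47. For the list genes these rules gave, in that order, 63.6%, 52.3%, 61.4% and 70.5%. The shares of protein-coding genes were 34.7%, 27.1%, 33.1% and 40.8%. Without replicate 2, 7 members (3 regulators, 4 cold-response genes, 10 peaks) and 40 list genes (90.9%) had a peak, against 66.7% of protein-coding genes. Without replicate 1, 5 members (2 regulators, 3 cold-response genes, 7 peaks) and 29 list genes (65.9%) had one, against 37.0%. No paired analysis was possible because the peak lists belong to 1 group. Replicate 2, with the shorter list and the lower background, limits what can be found in both lists.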

Other observations

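Some of the genes described here stand in neighbouring pairs. Among the members and the lists, 9 pairs of protein-coding genes are next to each other, chosen after their values were seen. In 6 of the pairs 1 gene carried a shared peak, in 2 both did and in 1 neither did. Of all 27439 pairs of neighbouring protein-coding genes, 32.5% had 1 such gene, 17.9% had both and 49.6% had neither. The 9 pairs were named after their values were seen, so nothing is read from these counts. KIN2 had 2.61 in replicate 1 and 1.83 in replicate 2, whereas KIN1 had 1 peak of 1.53 in replicate 1 only. RD29A had 1.79 and 2.19, and RD29B had 1 peak of 1.58 in replicate 1 only. COR413IM1, a chloroplast membrane protein gene, had 1.70 and 2.42, and COR413IM2 had 1 peak of 1.34 in replicate 1 only. RCI2A had 2.66 and 2.09, and RCI2B, also a small membrane protein gene, had no replicate 1 summit of its own. The replicate 2 peak of 2.09 that matches RCI2A has its summit near RCI2B. The other 2 such pairs are COR47 with ERD10 and CBF1 with DREB1A. Both genes carried a shared peak in the pairs CBF2 with DREB1A and XERO2 with XERO1, and neither did in COR15A with COR15B. The XERO1 peak also has its summit near XERO2, so it counts for both genes of that pair. The peaks given for KIN2 and COR413IM1 also lie near another gene, AT5G15980 and ML5 respectively. Pair members are similar in sequence in several cases, and the part of read assignment in these values was not tested.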
